A study of Drosophila melanogaster with 38 samples.

Results

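The response of female flies that had been moved to a poorer diet 1 to 3 days earlier was measured against that of flies left on the richer diet. The richer diet is called control food (CF), and restricted food (RF) is a dilution of its yeast and sugar. Flies of the Canton-S wild type strain were kept from adult life on CF or on RF, and the switched cohort (SF) consisted of CF flies moved to RF at an age of 40 days. The comparison holds the arrays of SF and CF collected at 24 hours from the switch, then every 8 hours to 56 hours, and at 72 hours, that is 12 of the 38 arrays in the series, joined into 6 pairs by hour. The RF arrays of the same hours and the SF and CF arrays of 2 to 18 hours are given beside it.

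Each array carried total RNA of head and thorax from at least 75 pooled females, with 1 array for a cohort at each hour. The 6 hours therefore take the place of replicates, and the p-values measure the spread between pairs of arrays collected at different hours, which holds the time course and the daily rhythm as well as chance. Males shared the vials of the females, and the cohorts were censored from 1 demography, so the arrays sample separate vials of 1 experiment. Values are expression scores on the log2 scale, in which a difference of 1 is a doubling, and 9420 probe sets, those whose score averaged 6 or more, were tested. In bulk RNA, fewer cells of a type and less RNA per cell cannot be told apart.

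Dietary restriction, a lowered intake of yeast and sugar, extends the lifespan of flies, and a diet change in adult life alters their death rate. The fat body, the insect counterpart of liver and adipose tissue, stores lipid, glycogen and protein and senses amino acids and sugar, and it signals through peptides to the insulin-producing cells of the brain. The gut sets the supply of nutrients through secreted proteases, maltases and membrane phosphatases. Genes of these tissues were therefore described by function, first the phosphatases and storage proteins and then metabolism, digestion, hormones and defence.

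Markers of the sampled tissue were present and those of males were at the low end of the scale. The mean of 16 flight muscle genes lay between 9.92 and 10.4 in CF and between 10.1 and 10.7 in SF, and that of 8 phototransduction genes between 9.49 and 9.88 in CF and between 9.71 and 10.2 in SF. The 7 male germline and accessory gland genes had means of 3.43 to 3.77 over both cohorts, and the highest single score among them was 4.94. Eggshell genes, which are expressed by follicle cells of the ovary, had means of 10.8 to 11.9 in CF and 10.5 to 11.9 in SF, although the labels name head and thorax. Their SF minus CF difference ran from -0.29 at 24 hours to 0.22 at 72 hours with a mean of 0.0056.

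From 24 to 72 hours nearly equal numbers of transcripts were higher and lower in SF than in CF, most of them by little. In SF 207 probe sets were higher than in CF (2.2% of those tested) and 199 were lower (2.11%), together 406 (4.31%) from 370 named genes. Called differences had a median size of 0.40 and a smallest size of 0.20, and 21 exceeded 2-fold, 12 of them higher and 9 lower in SF. With each array centred on its median 273 were higher and 173 lower, so that 61.2% of the calls were higher in place of 51.0%, and centring moved the median difference of all probe sets by 0.029. The sign was shared by 6 of 6 hours in 363 of the 406. The scores of the cohorts did not overlap in 80 of the higher and 49 of the lower calls, against 177 of all 9420 probe sets (1.88%).

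The calls rest on consistent differences over the 6 hours, so a shared sign of the hourly medians follows from the selection. The median difference of the higher calls was 0.42, 0.37 and 0.53 at 24, 32 and 40 hours and 0.27, 0.50 and 0.42 at 48, 56 and 72 hours. That of the lower calls was -0.36, -0.45 and -0.43 and then -0.41, -0.39 and -0.43. The higher calls were thus weakest at 48 hours, while the lower calls stayed within a narrow range. The number of calls changed with the hours used. With 1 hour left out it fell to between 154 (without 56 hours, 72 higher and 82 lower) and 339 (without 40 hours, 116 and 223), and the other 4 counts were 155 (32 hours), 244 (24 hours), 311 (72 hours) and 313 (48 hours). Without the pairing by hour 96 were higher and 62 lower. Of the 106 genes named here 85 were called, and 39 of these were no longer called without the pairing. With the eggshell mean as a covariate 88 were higher and 83 lower, and with the flight muscle mean 38 and 40.

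Alkaline phosphatases, enzymes that remove phosphate from many substrates at the gut and other epithelial surfaces, showed the strongest rise. Of 8 tested genes 7 rose in SF and 0 fell, where 2.2% of all probe sets were called higher. The median difference was 1.58 against -0.023 over all probe sets, and the count of 7 held with each hour left out. The largest change of the whole comparison belonged to phu (CG8147). Its score was 5.40 to 7.57 with a median of 6.66 in CF and 10.5 to 11.8 with a median of 11.5 in SF. The lowest SF array was well above the highest CF array. The mean difference was 4.69 (SE 0.24, n = 6 pairs, adjusted p = 0.000596), a 25.8-fold rise that ranged from 3.95 at 24 hours to 6.09 at 40 hours. An exact sign-flip test over the 6 pairs gave p = 0.03125, the smallest it can give. Any gene with a shared sign at all 6 hours gets this value. The largest rises were named only among such genes, so the sign-flip result followed from the selection and adds no support for phu.

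**Figure D1:**
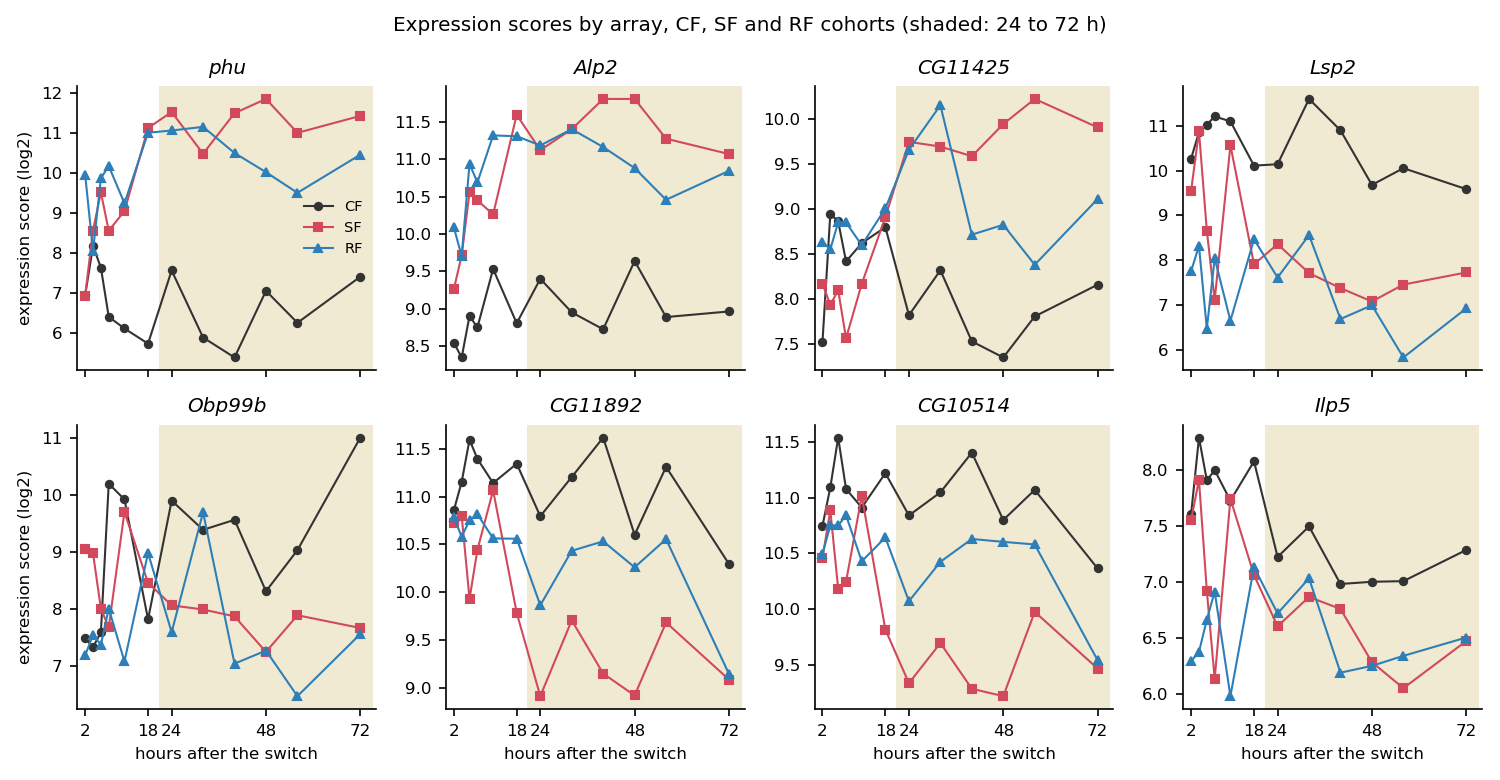
Expression scores on the log2 scale of 8 genes (vertical axis, 1 panel for each gene with its own range) by hours after the switch (horizontal axis) for CF (circles), SF (squares) and RF (triangles), 1 array for each point, with 24 to 72 hours shaded. In the shaded hours the 6 SF scores of phu lie between 10.5 and 11.8, above all CF scores, and those of Lsp2 lie between 7.09 and 8.36, below all CF scores.

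The other phosphatases followed with smaller changes. Alp2 (CG3290) scored 8.73 to 9.64 (median 8.96) in CF and 11.1 to 11.8 (median 11.3) in SF, a difference of 2.32 (SE 0.15, adjusted p = 0.000848). Alp8 (CG3264) scored 4.79 to 6.20 (median 5.17) in CF and 6.90 to 8.08 (median 7.38) in SF, a difference of 2.19 (SE 0.18, adjusted p = 0.00136). Neither gene had an SF array within the range of CF. The mean of Alp8 in CF was 5.30, so it passed the minimum score of 6 only through the cohorts in which it was high (7.49 in SF and 7.35 in RF) and had to differ, and its call is no support for the count of 7. With a minimum of 7, which left it out, 6 of 7 rose. Alp10 (CG10592) rose by 1.6 (SE 0.13, adjusted p = 0.00136), from 9.76 to 10.97 in CF to 11.7 to 12.3 in SF. Alp9 (CG5150) rose by 1.57 (SE 0.14, adjusted p = 0.00167), from 9.42 to 10.9 in CF to 11.5 to 12.1 in SF. These 5 genes were the members without overlap between cohorts. Alp4 rose by 0.46 (adjusted p = 0.0069) and Alp5 by 0.38 (adjusted p = 0.0136), each with overlapping scores, and Alp12 differed by -0.066 (adjusted p = 0.604). In flies kept on RF throughout, the same 7 genes were higher than in CF, where 18.3% of all probe sets were called, with phu at 3.85, Alp2 at 1.89, Alp8 at 2.05, Alp10 at 0.96 and Alp9 at 0.93. Both comparisons share the CF arrays. SF exceeded RF for Alp10 and for Alp9, by 0.63 in each (adjusted p = 0.0203 and 0.00728, in a comparison with 5.19% of probe sets called), and for phu SF minus RF was 0.85 (adjusted p = 0.0897).

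Among the other large rises were genes of membrane transport, of nucleases and of lipid phosphate hydrolysis. CG11425 encodes a predicted lipid phosphate phosphatase, a membrane enzyme that dephosphorylates signalling lipids. It scored 7.35 to 8.32 (median 7.81) in CF and 9.59 to 10.2 (median 9.83) in SF, a difference of 2.02 (SE 0.15, adjusted p = 0.00132). Its related gene CG11426 rose by 0.41 (adjusted p = 0.0164, and 0.0526 without 32 hours), and the other 4 of the 6 tested genes of this family were not called. CG1698, a predicted transporter of the sodium-dependent amino acid and neurotransmitter family, rose by 1.22 (SE 0.11, adjusted p = 0.00167) from 8.05 to 8.53 in CF to 9.11 to 9.69 in SF. MFS14 (CG15095), a transporter of the major facilitator superfamily, rose by 1.06 (SE 0.07, adjusted p = 0.000891) with an even response, from 0.88 at 32 hours to 1.3 at 48 hours. CG8745, a predicted aminotransferase, rose by 1.12 (SE 0.13, adjusted p = 0.00383).

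CG14120 and CG6839, which encode predicted nucleases of one family, rose by 1.05 (SE 0.12, adjusted p = 0.00362) and 1.0 (SE 0.15, adjusted p = 0.00904). CG3819, of the same family and chosen after its values were seen, rose by 0.88 (SE 0.07, adjusted p = 0.00136), from 10.4 to 10.8 in CF to 11.4 to 11.7 in SF. CG13947 rose by 1.38 (SE 0.22, adjusted p = 0.0115), with differences that spread from 0.40 at 32 hours to 2.35 at 72 hours. All 12 of the largest rises had SF scores above every CF score, and 5 of the 12 largest falls had SF scores below every CF score. Among all 9420 probe sets the cohorts did not overlap in 1.88%. Both groups were chosen for their size and shared sign, which favours a lack of overlap.

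**Figure D2:**
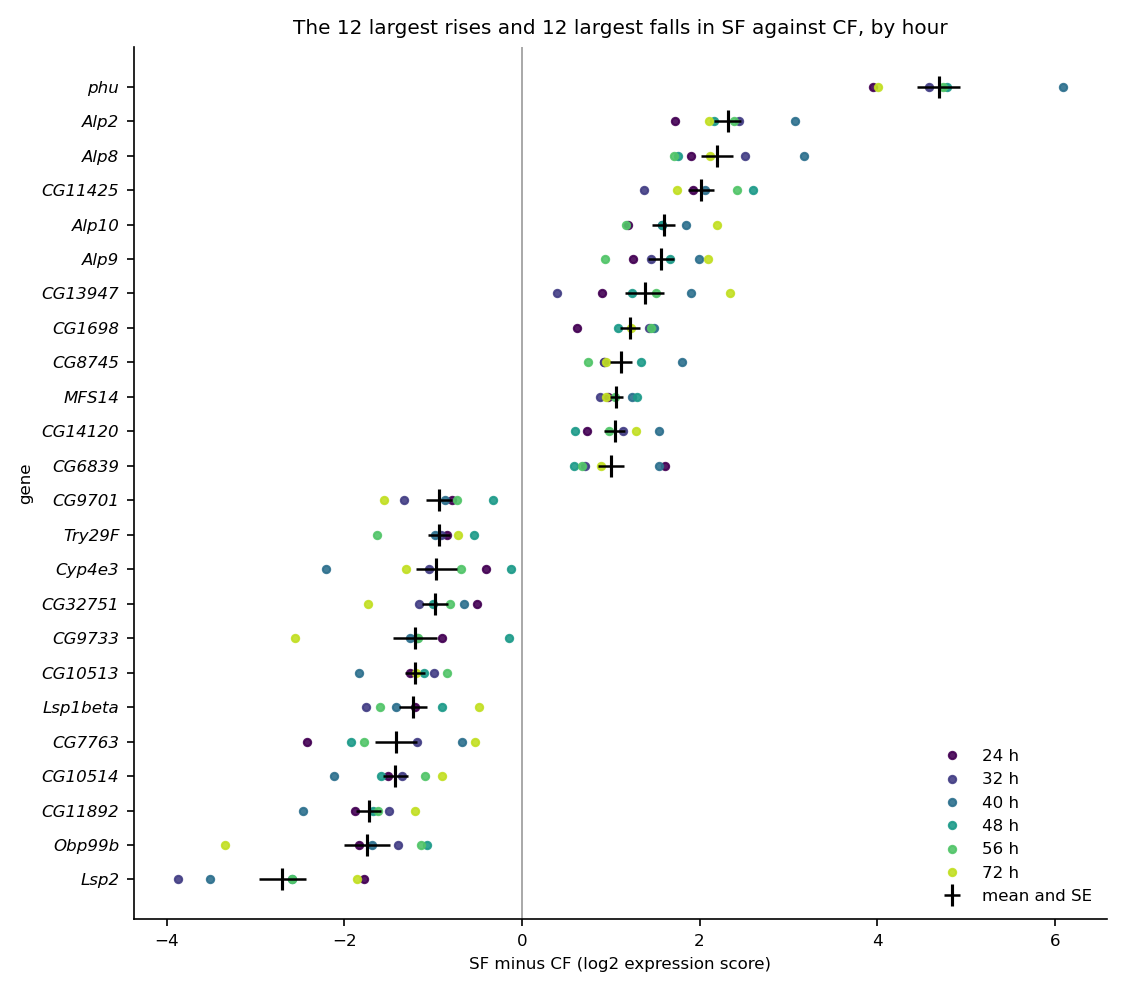
SF minus CF on the log2 scale (horizontal axis) for the 12 genes with the largest rises and the 12 with the largest falls among called genes of 1 sign at all 6 hours (vertical axis). Points are the 6 hours, and the black cross gives the mean and its standard error from the fit. Differences of phu run from 3.95 to 6.09 and those of Lsp2 from -3.87 to -1.78.

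Storage proteins fell. Both tested genes of the larval serum proteins, hexamers that the fat body makes and that hold amino acids in reserve, were lower in SF with each hour left out. Lsp2 scored 9.59 to 11.6 (median 10.1) in CF and 7.09 to 8.36 (median 7.59) in SF. The mean difference was -2.70 (SE 0.27, adjusted p = 0.00243), a 6.49-fold fall that was deepest at 32 hours (-3.87) and at 40 hours (-3.51). Lsp1beta scored 9.06 to 10.8 in CF and 8.02 to 9.21 in SF, a fall of 1.23 (SE 0.15, adjusted p = 0.00484) in which the ranges overlapped. Without the pairing by hour Lsp1beta was not called (adjusted p = 0.0798). RF minus CF was -3.21 for Lsp2 and -1.35 for Lsp1beta, and the SF minus RF differences of 0.51 for Lsp2 (adjusted p = 0.239) and 0.12 for Lsp1beta (adjusted p = 0.793) were not called. The gene fit, a secreted protein of the female fat body near the brain, fell by 0.65 (SE 0.082, adjusted p = 0.00484) from 13.6 to 14.2 in CF to 12.8 to 13.6 in SF. The yolk protein genes Yp1, Yp2 and Yp3 differed by -0.082, -0.16 and -0.093 (adjusted p = 0.355, 0.113 and 0.281).

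The odorant binding protein Obp99b, a small secreted carrier, had the next largest fall after Lsp2. It scored 8.31 to 11.01 (median 9.48) in CF and 7.25 to 8.07 (median 7.88) in SF, a difference of -1.74 (SE 0.26, adjusted p = 0.00958). The largest difference, -3.34 at 72 hours, came with the highest CF score, and the others lay between -1.84 and -1.06. Of 26 odorant binding proteins 5 fell and 1 rose, where 4.31% of all probe sets were called. Obp99a fell by 0.82 (SE 0.071, adjusted p = 0.00157), with a difference between -1.05 and -0.55 at each hour, and was not called without the pairing (adjusted p = 0.105). Obp44a fell by 0.54 (SE 0.088, adjusted p = 0.0116), Obp56e by 0.45 (adjusted p = 0.0247) and Obp56d by 0.34 (adjusted p = 0.0198). Obp83ef rose by 0.53 (adjusted p = 0.0348), a call that ended without 32, 40, 56 or 72 hours (adjusted p = 0.0677 to 0.103). With 1 hour left out 3 to 5 members were lower and 0 or 1 higher.

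A group of 3 related genes of unknown function fell together. CG11892, CG10514 and CG10513 belong to a family named for its likeness to a silkworm kinase that phosphorylates the steroid hormone ecdysone. CG11892 scored 10.3 to 11.6 (median 11) in CF and 8.91 to 9.71 (median 9.12) in SF, a difference of -1.73 (SE 0.14, adjusted p = 0.00136). CG10514 scored 10.4 to 11.4 (median 10.9) in CF and 9.22 to 9.97 (median 9.40) in SF, a difference of -1.43 (SE 0.14, adjusted p = 0.00235). CG10513 fell by 1.21 (SE 0.12, adjusted p = 0.00203), from 9.74 to 10.2 in CF to 8.36 to 8.95 in SF. In all 3 the cohorts did not overlap, and the deepest difference was at 40 hours (-2.47, -2.12 and -1.83). Of the 14 tested members of the family 3 fell and 2 rose, where 4.31% of all probe sets were called. CG11893 rose by 0.37 (adjusted p = 0.0428), a call that ended without 24, 32, 48, 56 or 72 hours (adjusted p = 0.0649 to 0.112), and CG10553 rose by 0.24 (adjusted p = 0.0355). With 1 hour left out 3 or 4 members were lower and 0 to 3 higher.

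The 3 genes fell past the level of flies kept on RF. RF minus CF was -0.84 for CG11892, -0.61 for CG10514 and -0.71 for CG10513, and SF minus RF was -0.89 (adjusted p = 0.0161), -0.81 (adjusted p = 0.0224) and -0.50 (adjusted p = 0.0371). The zinc importer gene Zip42C.1 (CG9428) lay between the 2 other cohorts. It scored 7.14 to 7.69 in CF, 6.62 to 7.12 in SF and 5.37 to 6.62 in RF, with SF minus CF at -0.61 (SE 0.055, adjusted p = 0.00167) and SF minus RF at 0.87 (adjusted p = 0.00525). Its difference from CF stayed between -0.78 and -0.52 over the 6 hours. Between RF and CF 1723 probe sets were called at 24 to 72 hours (18.3%), 949 higher and 774 lower in RF, and between SF and RF 489 (5.19%), 177 higher and 312 lower in SF. All 3 comparisons share arrays.

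The rest of the large falls held enzymes and genes with no assigned function. CG7763 scored 8.45 to 9.65 (median 9.47) in CF and 7.20 to 9.13 (median 7.45) in SF, a difference of -1.42 (SE 0.24, adjusted p = 0.0131). Its SF scores at 40 and 72 hours (8.85 and 9.13) lay within the range of CF and the other 4 lay below it, and without the pairing it was not called (adjusted p = 0.0542). CG9733, a predicted serine protease, fell by 1.2 (SE 0.25, adjusted p = 0.0247), with a difference of -0.14 at 48 hours and -2.56 at 72 hours. It was not called without 32 hours (adjusted p = 0.0658), without 56 hours (adjusted p = 0.0722) or without the pairing (adjusted p = 0.115). CG9701, a predicted beta-glucosidase, fell by 0.93 (SE 0.14, adjusted p = 0.0105, and 0.0796 without the pairing). CG32751 fell by 0.98 (SE 0.14, adjusted p = 0.00861, and 0.226 without the pairing), and in both cohorts its score was highest at 40 hours, at 8.49 in CF and 7.84 in SF.

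Genes of sugar digestion changed singly. Maltases split disaccharides at the gut surface, and of 12 tested maltases and amylases 1 rose and 1 fell, with a median of -0.050. Over all probe sets 4.31% were called. Mal-B2 scored 9.04 to 9.63 (median 9.42) in CF and 10.1 to 10.4 (median 10.3) in SF, a difference of 0.93 (SE 0.11, adjusted p = 0.00358) with no overlap. Mal-A8 fell by 0.47 (SE 0.085, adjusted p = 0.0165) with overlapping scores and was not called without the pairing (adjusted p = 0.183). In RF 9 of the 12 were lower than in CF and 1 was higher, with a median of -0.49. Mal-A4 was at 0.022 in SF minus CF (adjusted p = 0.899) and -1.06 in RF minus CF (adjusted p = 0.00371), and SF minus RF was 1.08 (adjusted p = 0.00371). Mal-A3 was -0.76 in RF minus CF and 0.41 in SF minus CF (adjusted p = 0.0518), and SF minus RF was 1.17 (adjusted p = 0.00271).

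Of 19 genes of NADPH supply and of fat synthesis 5 were called, all lower in SF, where 2.11% of all probe sets were called lower. Malic enzyme, encoded by Men, yields NADPH for fatty acid synthesis. Men scored 12.3 to 13.0 (median 12.6) in CF and 11.7 to 12.3 (median 12.0) in SF, a difference of -0.61 (SE 0.10, adjusted p = 0.0126) without overlap. The differences ranged from -0.16 at 24 hours to -0.97 at 40 hours. Of the 7 tested genes of the pentose phosphate pathway and NADPH supply all had negative differences and 2 fell (1 or 2 with 1 hour left out). The second was the transaldolase gene Taldo at -0.29 (adjusted p = 0.0496), a call lost without 24, 32, 40, 48 or 56 hours (adjusted p = 0.0750 to 0.133). Among 12 genes that build fatty acids and triglyceride there were 3 falls and 0 rises, with a median of 0.023. Of these 12 genes 7 had positive differences, and with 1 hour left out 1 to 3 were called lower. Dgat2, whose product makes triglyceride from diglyceride, fell by 0.55 (SE 0.078, adjusted p = 0.00761), with a difference between -0.91 and -0.34 at each hour, and was not called without the pairing (adjusted p = 0.0614). The fatty acid synthase gene FASN1 fell by 0.28 (SE 0.057, adjusted p = 0.0246), a call lost without 32, 40, 48 or 56 hours (adjusted p = 0.0502 to 0.0807). Acetyl-CoA synthetase AcCoAS fell by 0.25 (adjusted p = 0.04998), a call lost without 32, 40, 48, 56 or 72 hours (adjusted p = 0.0838 to 0.124).

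Each group of genes for fat use or central carbon flow held 1 call or 0, where 4.31% of all probe sets were called. Of 16 beta-oxidation genes 13 had negative differences and CG3902, an acyl-CoA dehydrogenase, fell by 0.34 (SE 0.069, adjusted p = 0.0235), a call lost without 32 or 56 hours (adjusted p = 0.0732 and 0.0663). Of 13 genes of lipid storage and lipases 1 fell, the lipid droplet protein gene Lsd-1 at -0.30 (SE 0.064, adjusted p = 0.0291), a call lost without 32, 40, 48 or 56 hours (adjusted p = 0.0588 to 0.0796). None of 10 glycolysis genes was called by limma (2 at an unadjusted p under 0.05) although 9 of the differences were negative, with a median of -0.095. The hexokinase Hex-C, at 0.18, had the lowest p of them (adjusted p = 0.0839). Of 10 genes of gluconeogenesis, glycogen and trehalose 0 were called (2 at an unadjusted p under 0.05), and Pepck2 was at -0.33 (adjusted p = 0.0770), passing without 56 hours (adjusted p = 0.0234).

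**Figure D3:**
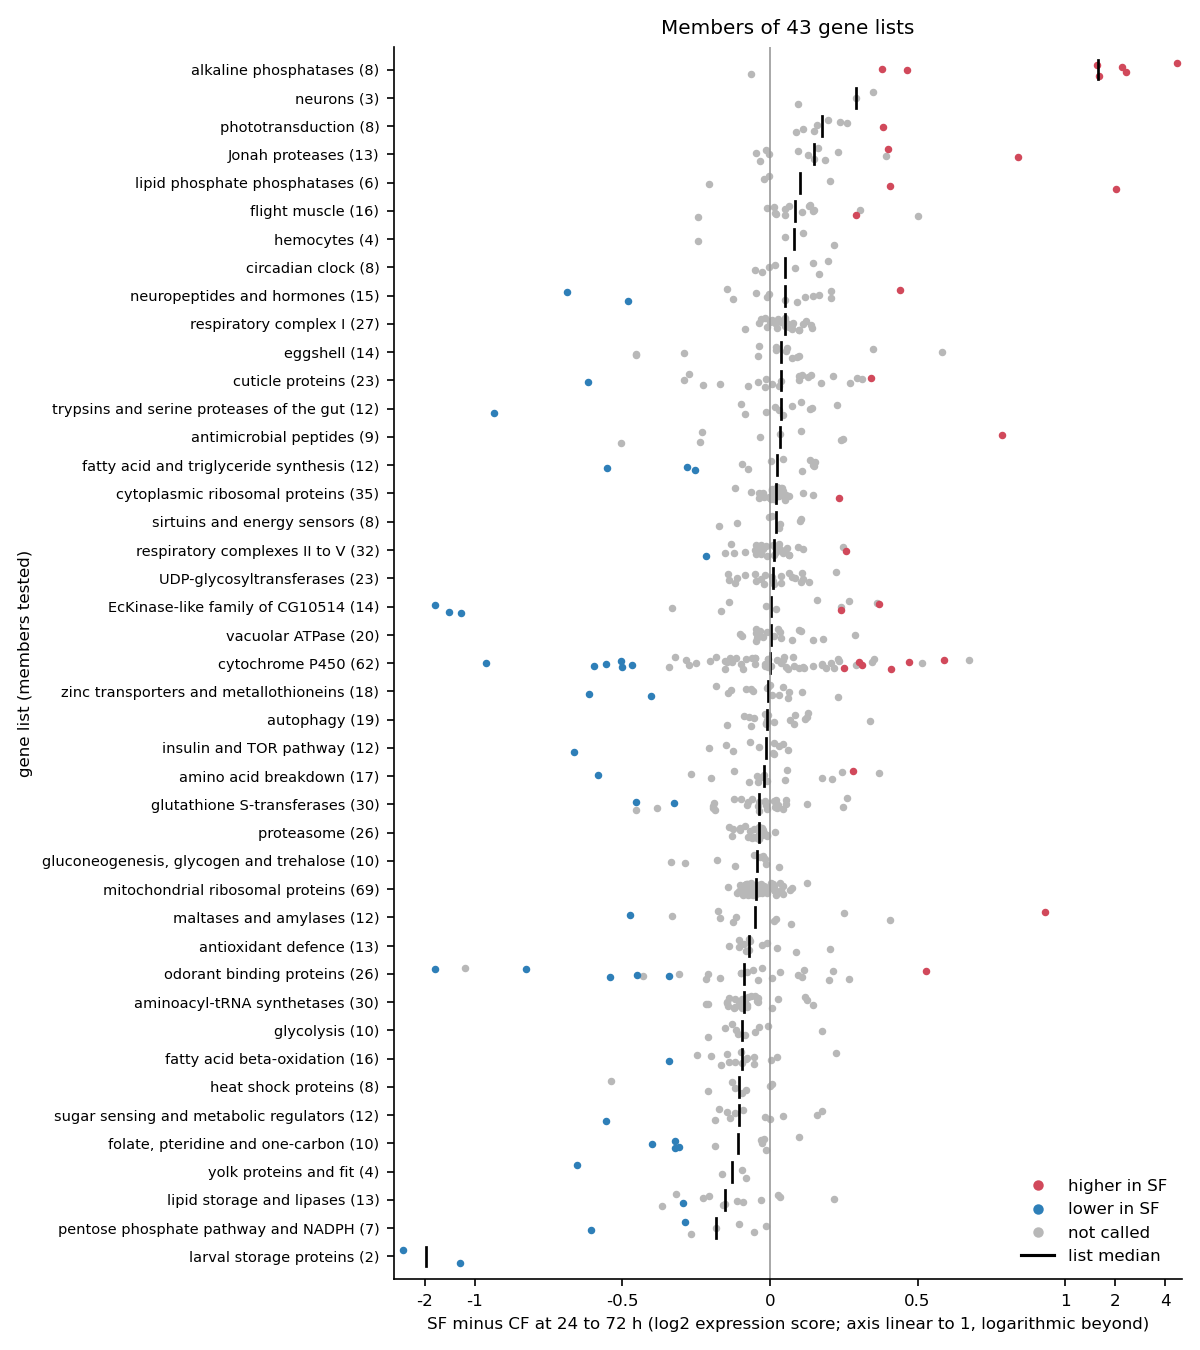
SF minus CF at 24 to 72 hours on the log2 scale (horizontal axis, linear to 1 and logarithmic beyond) of each tested member of 43 gene lists (vertical axis, number of members in brackets, ordered by the median). Points are genes, coloured where called higher or lower in SF and grey where not called, and the vertical bar is the list's median. The medians of the alkaline phosphatases (1.58) and of the larval storage proteins (-1.96) stand apart from those of the other lists, which lie between -0.18 and 0.29.

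Glycine, folate and pteridine genes tended to be lower. Of 10 such genes 9 had negative differences, 4 fell and 0 rose, with a median of -0.11. Over all probe sets 2.11% were called lower. All 4 were small and depended on the hours used. CG6415 and CG3999, both enzymes of the glycine cleavage system, fell by 0.31 (SE 0.068, adjusted p = 0.0295) and 0.32 (SE 0.082, adjusted p = 0.0458). Pu, GTP cyclohydrolase of pteridine synthesis, fell by 0.40 (SE 0.10, adjusted p = 0.0449), and serine hydroxymethyltransferase Shmt by 0.32 (SE 0.085, adjusted p = 0.0496). CG6415 was not called without 32, 40, 48 or 72 hours (adjusted p = 0.0547 to 0.0912), CG3999 without 24, 32, 40, 48 or 56 hours (0.0856 to 0.134), Pu without 24, 32, 48, 56 or 72 hours (0.0623 to 0.130) and Shmt without 24, 32, 40, 56 or 72 hours (0.0903 to 0.115). With 1 hour left out 0 or 1 of the list was lower. In RF, CG3999 was higher than in CF, at 0.37 (adjusted p = 0.0412), so that SF minus RF was -0.69 (adjusted p = 0.00404).

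Amino acid breakdown held 1 rise and 1 fall among 17 genes, where 4.31% of all probe sets were called. Oat, ornithine aminotransferase, scored 10.4 to 10.9 (median 10.6) in CF and 9.88 to 10.2 (median 10.1) in SF, a difference of -0.58 (SE 0.097, adjusted p = 0.0131) without overlap. The tyrosine pathway gene hgo, homogentisate dioxygenase, rose by 0.28 (SE 0.055, adjusted p = 0.0206), a call lost without 24, 32 or 56 hours (adjusted p = 0.0539 to 0.0711). It stood at 0.75 in RF minus CF (adjusted p = 0.00286) and at -0.47 in SF minus RF (adjusted p = 0.0159).

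Among the digestive proteases 3 genes were called, where 4.31% of all probe sets were. Jonah genes encode serine proteases secreted by the midgut, and of 13 tested 2 rose and 0 fell, with a median of 0.15. Jon44E scored 9.54 to 10.3 (median 10.01) in CF and 10.5 to 11.2 (median 10.8) in SF. Its difference of 0.84 (SE 0.12, adjusted p = 0.00686) was 0.20 at 24 hours and between 0.83 and 1.14 afterwards, and the cohorts did not overlap. Jon99Ci rose by 0.40 (adjusted p = 0.0497), a call lost without 32, 40, 48, 56 or 72 hours (adjusted p = 0.0585 to 0.117). The mean over the 13 Jonah genes was -0.19 at 24 hours and 0.41 at 72 hours in SF minus CF. Among 12 trypsins and other gut serine proteases Try29F fell by 0.94 (SE 0.13, adjusted p = 0.00637), from 6.14 to 7.85 in CF to 5.61 to 6.22 in SF, and was not called without the pairing (adjusted p = 0.0569). Its SF mean lay under the minimum of 6, so Try29F passed through other arrays and its call carries less weight.

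Of the peptides that link feeding to metabolism, Ilp5 and CCHa2 fell. Ilp5, an insulin-like peptide of the insulin-producing cells of the brain, scored 6.98 to 7.5 (median 7.12) in CF and 6.05 to 6.87 (median 6.54) in SF. The difference of -0.66 (SE 0.091, adjusted p = 0.00686) was smallest at 40 hours (-0.22) and deepest at 56 hours (-0.96), and every SF score was below every CF score. RF minus CF was the same, at -0.66 (adjusted p = 0.00178). Ilp5 was the single call among 12 genes of the insulin and TOR pathway, which had a median of -0.013. CCHa2, a peptide of the fat body and gut that acts on the insulin-producing cells, fell by 0.56 (SE 0.11, adjusted p = 0.0212). Its difference was 0.06 at 40 hours and between -0.82 and -0.60 at the other 5 hours, and the call ended without 24, 32 or 56 hours (adjusted p = 0.0501 to 0.0698). RF minus CF of CCHa2 was -0.14 (adjusted p = 0.102).

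Of 15 neuropeptides, hormones and their receptors 2 fell and 1 rose, where 4.31% of all probe sets were called. Nplp3, a neuropeptide-like precursor, fell by 0.69 (SE 0.11, adjusted p = 0.0104) and was not called without the pairing (adjusted p = 0.0710). AkhR, the receptor for adipokinetic hormone, the insect counterpart of glucagon, fell by 0.48 (SE 0.10, adjusted p = 0.0282), a call lost without 32, 48 or 56 hours (adjusted p = 0.0618 to 0.0793), and its other probe set was at 0.036 (adjusted p = 0.887). Both were lower in SF than in RF, by 0.63 for Nplp3 (adjusted p = 0.0247) and 0.70 for AkhR (adjusted p = 0.011). The RF minus CF differences were -0.057 for Nplp3 (adjusted p = 0.736) and 0.22 for AkhR (adjusted p = 0.194). Ptth, the peptide that drives ecdysone release in larvae, rose by 0.44 (SE 0.084, adjusted p = 0.0198), a call lost without 32 or 56 hours (adjusted p = 0.0555 and 0.0593). Its difference was positive at 6 of 6 hours, from 0.12 at 24 hours to 0.74 at 56 hours. Limostatin, encoded by Lst and chosen after its values were seen, is released on fasting and suppresses insulin secretion. Lst scored 10.4 to 11.1 (median 10.9) in CF and 11.3 to 11.6 (median 11.4) in SF, a rise of 0.54 (SE 0.086, adjusted p = 0.0111) without overlap, and RF minus CF was 0.36 (adjusted p = 0.0866).

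Detoxification genes moved in both directions. Of 62 cytochrome P450 genes, oxidases of foreign compounds, hormones and fatty acids, 6 rose and 6 fell, with a median of -0.00034. Over all probe sets 2.2% were called higher and 2.11% lower. Cyp4d8 fell by 0.55 (SE 0.056, adjusted p = 0.0026), from 7.80 to 8.23 in CF to 7.28 to 7.75 in SF, without overlap and with differences between -0.73 and -0.47. Cyp4ac2 fell by 0.60 (SE 0.089, adjusted p = 0.00938). Cyp4e3 fell by 0.96 (SE 0.24, adjusted p = 0.0400), with a difference of -2.20 at 40 hours and -0.13 at 48 hours, and was not called without 24, 32, 56 or 72 hours (adjusted p = 0.0521 to 0.106) or without the pairing (adjusted p = 0.0726). Cyp6a23 rose by 0.59 (SE 0.13, adjusted p = 0.0272), a call lost without 24, 32, 40 or 56 hours (adjusted p = 0.0515 to 0.0825), and Cyp12a5 rose by 0.41 (adjusted p = 0.0190) without overlap. With 1 hour left out 0 to 4 members were higher and 2 to 5 lower.

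Of 30 glutathione S-transferases, which conjugate glutathione to reactive compounds, 2 fell and 0 rose, where 4.31% of all probe sets were called. GstE9 scored 12.7 to 12.9 in CF and 12.1 to 12.6 in SF, a difference of -0.45 (SE 0.058, adjusted p = 0.00507) without overlap. GstE7 fell by 0.33 (SE 0.063, adjusted p = 0.0208), a call lost without 24, 32 or 56 hours (adjusted p = 0.0509 to 0.0589). None of 23 UDP-glycosyltransferases and none of 13 antioxidant genes was called by limma (0 and 2 at an unadjusted p under 0.05). Ugt37B1 was at -0.14 (adjusted p = 0.235) and Gclm, a subunit of the enzyme that starts glutathione synthesis, at 0.20 (adjusted p = 0.105). Of 18 zinc transporters and metallothioneins, Zip42C.1 and the metallothionein MtnC fell. MtnC was at -0.40 (SE 0.079, adjusted p = 0.0215) and was not called without 24 or 32 hours (adjusted p = 0.0516 and 0.0632).

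Cuticle proteins held 1 rise and 1 fall and antimicrobial peptides 1 rise, where 4.31% of all probe sets were called. The Bomanins, another family of immune peptides, are described in the closing observations. Of 23 cuticle proteins Cpr60D fell by 0.62 (SE 0.072, adjusted p = 0.00383), from 6.05 to 6.36 in CF to 5.22 to 5.85 in SF, without overlap. Its SF scores lay under the minimum mean score of 6, so Cpr60D passed through other arrays and its call carries less weight. Cpr67B rose by 0.34 (adjusted p = 0.0467), a call lost without 24, 32, 40, 56 or 72 hours (adjusted p = 0.0673 to 0.124). Among 9 antimicrobial peptides Drsl2, a drosomycin-like peptide, rose by 0.79 (SE 0.19, adjusted p = 0.0410), with differences from -0.01 at 24 hours to 1.63 at 40 hours, and was not called without 32, 40, 48, 56 or 72 hours (adjusted p = 0.0639 to 0.0982). Over the 9 peptides the median was 0.033 in SF minus CF and -0.37 in RF minus CF.

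Subunits of the large cellular machines gave few calls. At the probe set that stands for each gene, none was called by limma among 27 subunits of respiratory complex I (0 at an unadjusted p under 0.05), 69 mitochondrial ribosomal proteins (1), 26 proteasome subunits (0), 30 aminoacyl-tRNA synthetases (6), 20 vacuolar ATPase subunits (2), 19 autophagy genes (1), 8 sirtuins and energy sensors (0), 8 heat shock proteins (2) and 8 clock genes (2). A second, dimmer probe set of the clock gene cwo was called, at 0.79 (adjusted p = 0.00559). The directions were still uneven. Of the proteasome genes 25 of 26 had negative differences, with a median of -0.038 and the largest at -0.14, and of the aminoacyl-tRNA synthetases 25 of 30 had, with a median of -0.090. Of the complex I subunits 22 of 27 had positive differences, with a median of 0.050, against 42.2% positive over all probe sets. The medians of these lists are within 0.11 of 0, and single members were closest to a call in GlyRS (-0.21, adjusted p = 0.0627, and 0.0497 without 72 hours), Vha36-3 (0.29, adjusted p = 0.0748), Clk (0.17, adjusted p = 0.0833), Hsc70-3 (-0.21, adjusted p = 0.109), Atg10 (-0.15, adjusted p = 0.147), mRpS9 (0.12, adjusted p = 0.179), Rpt4 (-0.14, adjusted p = 0.192), ND-B14 (0.11, adjusted p = 0.236) and Indy (-0.17, adjusted p = 0.298).

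In complexes II to V 1 of 32 subunits rose and 1 fell, where 4.31% of all probe sets were called. COX7AL2 was at 0.26 (adjusted p = 0.0376) and ATPsynC at -0.22 (adjusted p = 0.0467). Of 35 cytoplasmic ribosomal proteins RpL24-like rose by 0.23 (adjusted p = 0.0461). None of these held with each hour left out. COX7AL2 ended without 24, 32, 40, 56 or 72 hours (adjusted p = 0.0569 to 0.106), and ATPsynC (0.0628 to 0.126) and RpL24-like (0.0630 to 0.143) without any 1 of the 6.

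Tissue markers shifted by less than the largest responses. At 24 hours, though, the flight muscle, phototransduction and neuron means shifted by more than the median of the higher calls (0.42). All 8 phototransduction genes had positive differences, with a median of 0.18, and the scaffold gene inaD rose by 0.38 (SE 0.080, adjusted p = 0.0258), a call lost without 32 or 56 hours (adjusted p = 0.0528 and 0.0773). Of 16 flight muscle genes 14 had positive differences and Mlc1 rose by 0.29 (adjusted p = 0.0338), a call lost with any 1 hour left out (adjusted p = 0.0550 to 0.0774). The flight muscle mean in SF minus CF ran from 0.55 at 24 hours to -0.24 at 72 hours, and the phototransduction mean from 0.58 at 24 hours to 0.06 at 32 hours. At 24 hours the mean of 3 neuron markers was also higher in SF, by 0.71, and elav had the lowest p of them over all hours (0.29, adjusted p = 0.198). The 4 hemocyte markers had a mean difference of 0.034, with Hml at 0.22 (adjusted p = 0.0979), and none of 14 eggshell genes was called by limma (2 at an unadjusted p under 0.05), with Cp38 at -0.45 (adjusted p = 0.0791). The part of these shifts in the calls was tested only through the counts with the eggshell or flight muscle mean as a covariate.

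The earlier hours, measured on arrays of their own, held part of the same differences. At 2 to 18 hours limma, with these p-values adjusted on their own, called 0 probe sets (0%) between SF and CF. An unadjusted p under 0.05 was reached by 487. Adjusted on its own in the same way, the comparison at 24 to 72 hours gave 184 calls in place of 406. Of the 199 probe sets lower at 24 to 72 hours 166 (83.4%) had a negative mean difference at 2 to 18 hours, where 43.8% of all probe sets did, and their median was -0.32. Of the 207 that were higher 112 (54.1%) had a positive one, where 56.2% of all did, and their median was 0.026. Among the alkaline phosphatases the differences of these hours, none of them called, were 2.12 for phu, 1.49 for Alp2, 1.17 for Alp9 and 1.07 for Alp10 (adjusted p = 0.586 for each) and 0.26 for Alp8 (adjusted p = 0.730), positive at 4 to 6 of the 6 hours. Lsp2 stood at -1.64, CG9733 at -1.14 and Lsp1beta at -1.0. Obp99b was at 0.25 and CG7763 at 0.72 in these hours.

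**Figure D4:**
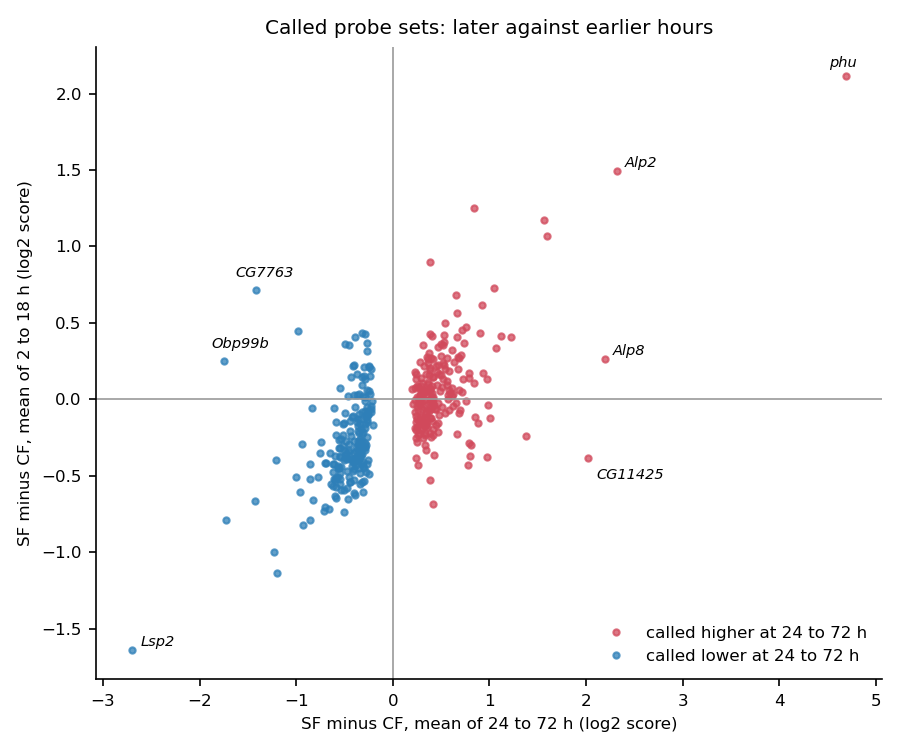
Mean SF minus CF on the log2 scale at 24 to 72 hours (horizontal axis) and at 2 to 18 hours (vertical axis) for the 406 called probe sets, those higher at 24 to 72 hours in red and those lower in blue, with 7 genes named. The lower calls lie mostly below 0 on the vertical axis, and the higher calls lie on both sides of it, with phu at 4.69 and 2.12 and CG11425 at 2.02 and -0.39.

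One gene differed between the earlier and the later hours in a test of that difference. CG11425 was at -0.39 at 2 to 18 hours, positive at 2 of 6 hours, and at 2.02 at 24 to 72 hours, positive at 6 of 6. The difference of 2.41 (adjusted p = 0.0171) was the single call (0.0106% of those tested), the next lowest adjusted p was 0.205, and 1334 probe sets had an unadjusted p under 0.05. The call held without 32 hours (adjusted p = 0.0191) and ended without 24, 40, 48, 56 or 72 hours (adjusted p = 0.0587 to 0.0779). Both cohorts contributed to the difference of 2.41. CF scored 7.52 to 8.95 at 2 to 18 hours and 7.35 to 8.32 at 24 to 72 hours. SF scored 7.56 to 8.91 at 2 to 18 hours and 9.59 to 10.2 at 24 to 72 hours.

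No probe set was found to change steadily between 24 and 72 hours. The slope of SF minus CF on time gave 0 calls (0%) by limma, with a lowest adjusted p of 0.284, and 1000 probe sets had an unadjusted p under 0.05, among them 31 of the 406 calls. The lowest p belonged to MFS12, a transporter of the major facilitator superfamily, whose difference went from 0.35 at 24 hours to -1.42 at 72 hours, a slope of -0.82 (SE 0.092) for each 24 hours (adjusted p = 0.284). Acbp3, an acyl-CoA binding protein, had a slope of 0.53 and Ance-3, of the angiotensin-converting enzyme family, one of -0.58 (adjusted p = 0.464 for both). With 6 pairs, such a slope could be estimated only coarsely, and the absence of a call is not evidence of steady levels.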

How the data were processed

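Gene expression was measured on Affymetrix Drosophila 2.0 arrays. The authors quantile normalized and summarized the arrays by Robust Multichip Analysis (RMA), and the deposited table holds log2 expression scores for all 18952 probe sets, before any filter. The number of arrays limits the precision. Control probe sets (183) were left out, and 9420 of the other 18769 with a mean score of at least 6 over the 36 arrays of 2 to 72 hours were tested. The 2 arrays at 0 hours were not used, since SF has none. Of the tested probe sets 8388 had 1 gene, 242 several and 790 none, and 43 were named from the study's supplement. Genes use current symbols, and the probe set with the highest mean stands for a gene. The SF means of CG32751, Try29F and Cpr60D lay under 6, so these genes passed the minimum through other arrays.

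Following the methods, arrays were paired by hour. SF with CF, RF with CF and SF with RF were compared by limma 3.58.1 in R 4.3.3 (lmFit, eBayes) on the paired differences, and the pooled p-values of the 3 comparisons were adjusted by the Benjamini-Hochberg method at 0.05. The later against the earlier hours and the slope over 24 to 72 hours were adjusted on their own. The collection hour given in the labels makes the pairs. The deviations of same-hour SF and CF arrays from their cohort means correlated at 0.26, 0.35 and -0.026 at 24, 32 and 40 hours and at 0.47, 0.19 and 0.23 at 48, 56 and 72 hours, and the same-hour array was the best match in 1 of 6 SF and CF pairs, against 6 of 6 RF and CF pairs.

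Named genes are the 12 largest rises and 12 largest falls among calls of 1 sign at all 6 hours, up to 4 called members of each of 44 gene lists or otherwise the member of lowest p, and, for the later against the earlier hours and for the slope, the called genes or the 3 of lowest p. Alp4, Alp5, Alp12, Obp56e, Obp56d, CG10553, Cyp12a5, Mal-A3, Mal-A4 and the yolk protein genes were added from the lists, and 20 further genes, CG3819, Lst and the genes of the closing observations, were chosen after their values were seen. The comparison and the lists were chosen with earlier results of these data known. A call needs an adjusted p under 0.05. Lists are described by counts and medians, without a test. Alternatives were no pairing, no filter, a mean score of at least 7, median centring, array weights, the methods' paired t-test, separate adjustment, a single fit, eggshell or flight muscle covariates, 24, 48 and 72 hours alone, and leaving out each hour. The fits were tested on simulated data.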

Additional observations from a re-analysis of the deposited data

Results flagged for a closer look

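The SF minus CF difference of CG11425, a predicted lipid phosphate phosphatase, was larger at 24 to 72 hours than at 2 to 18 hours by 2.41 on the log2 scale, and the test of that difference passed (adjusted p = 0.0171). By the methods' paired t-test it did not (adjusted p = 0.0945).

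Among 212 sets of 6 arrays (each named gene in CF and in SF) 9 had 1 array far from the other 5, and chance flags about 1 in 20 such sets. Of these, 6 concern the arrays at 40 hours, where SF and CF moved together for 2 genes. The clock gene Clk scored 5.90 in CF and 6.18 in SF at 40 hours, where the other hours lay between 6.84 and 7.16 and between 7.02 and 7.35. In RF Clk scored 6.13 at 40 hours, against 6.92 to 7.42 at the other hours. CG32751 scored 8.49 in CF and 7.84 in SF at 40 hours, against 6.42 to 7.02 and 5.30 to 6.05. In RF CG32751 scored 5.80 at 40 hours, within the 4.28 to 6.02 of the other hours. At the same hour CG10513 scored 8.36 in SF, below the 8.73 to 8.95 of the other hours, and the chorion gene Cp38 scored 13.0 in CF, below 13.6 to 14.0. The transporter gene CG1698 scored 9.11 in SF at 24 hours, below 9.51 to 9.69. Of genes chosen after their values were seen, the glycerol-3-phosphate dehydrogenase gene Gpdh1 scored 12.4 in SF at 72 hours, below 12.7 to 12.9, and the purine synthesis gene Paics scored 12.8 in CF at 32 hours, above 12.4 to 12.5. No other of the 6 hours shared its hour of the day with 40 hours. A daily rhythm and an odd array cannot be told apart there. The cause of these single values was not tested.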

How the results depend on the processing

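No value of the 106 named genes changed sign under the alternatives that could be run for it (11 genes lay under the minimum mean score of 7 and had none there), and the range of counts was wide. Without the pairing by hour (no replicate block) 96 probe sets were higher and 62 lower in SF than in CF, 155 of them among the 406, with 339 called between RF and CF and 120 between SF and RF. The methods' paired t-test gave 29 and 21, 175 and 29, and adjusting each comparison on its own 94 and 90, 2776 and 183. With the eggshell mean as a covariate the counts were 88 and 83, 233 and 64, and with the flight muscle mean 38 and 40, 1 and 6 (and 2 calls for the later against the earlier hours). At 24, 48 and 72 hours alone, the same hour of the day, they were 4 and 2, 4 and 1. Array weights gave 374 lower in SF than in CF, 1200 between SF and RF and 2 for the later against the earlier hours, and a single fit of the 3 cohorts gave 963 between SF and RF. With each hour left out, 72 to 180 were higher in SF than in CF (122 without 24 hours, 84 without 32, 116 without 40, 72 without 56) and 71 to 223 lower (122 without 24, 71 without 32, 82 without 56). Between RF and CF 463 to 1590 were called (879 without 24, 762 without 32, 914 without 40, 463 without 56), between SF and RF 104 to 550 (300 without 24, 158 without 32, 226 without 48, 104 without 56), and for the later against the earlier hours 0 or 1. The last test and the slope, which gave 0 calls under all alternatives run, were not made with separate adjustment, a single fit or 24, 48 and 72 hours alone. Fewer pairs or a covariate leave fewer degrees of freedom, and otherwise the cause was not tested. Of 85 named genes that were called, 47 kept their call with each hour left out, 22 of them among the 24 with the largest changes. Of the same 85 genes 39 were no longer called without the pairing and 66 by the paired t-test. With 1 array for a cohort at each hour, array error and the time course cannot be told apart.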

Other observations

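All genes and families given here were chosen after their values were seen. Outside the groups above, the Bomanins, the neprilysin-like genes and the mucins held calls in 1 direction only. Over all probe sets 2.2% were called higher and 2.11% lower. The Bomanins are short immune peptides that the fat body secretes into the blood. All 8 tested genes had positive SF minus CF differences, where 42.2% of all probe sets did, with a median of 0.48, and 4 rose. BomBc2 scored 13.3 to 13.6 in CF and 13.7 to 14.1 in SF, a rise of 0.47 (SE 0.073, adjusted p = 0.01) without overlap. BomBc3 was at 0.80 (adjusted p = 0.0418), BomT2 at 0.51 (adjusted p = 0.0310) and BomS6 at 0.26 (adjusted p = 0.0467), and these 3 calls ended with some hours left out, BomBc3 without 24, 32, 40, 56 or 72 hours (adjusted p = 0.0592 to 0.118), BomT2 without 32, 40 or 56 hours (0.0521 to 0.0927) and BomS6 without 24, 32, 40, 48 or 56 hours (0.0689 to 0.128). In RF minus CF the median was 0.61. The neprilysin-like genes encode peptidases of the type that cleaves signalling peptides. Of 14 tested 4 fell and 0 rose, with a median of -0.24 in SF minus CF and 0.032 in RF minus CF. Nepl6 scored 7.96 to 8.49 in CF and 6.59 to 7.62 in SF, a fall of 0.85 (SE 0.14, adjusted p = 0.0112) without overlap, and Nepl18 fell by 0.57 (SE 0.060, adjusted p = 0.00284). Nepl13 and Nepl14 fell by 0.50 and 0.48 (adjusted p = 0.0303 and 0.0322), and both ended without 32, 40, 48 or 72 hours (adjusted p = 0.0525 to 0.0972). SF was lower than RF for Nepl6 by 0.67 (adjusted p = 0.0247) and for Nepl18 by 0.36 (adjusted p = 0.0365).

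Of 6 mucin genes, which encode gel-forming proteins of epithelial surfaces, 3 rose and 0 fell, with the lowest difference at -0.91. Over all probe sets 2.2% were called higher. Muc68E rose by 0.44 (SE 0.087, adjusted p = 0.0217, ending without 24 or 32 hours at 0.0512 and 0.0619), Muc55B by 0.40 (SE 0.080, adjusted p = 0.0228, with a CF mean of 5.91, under the minimum of 6) and Muc12Ea by 0.84 (adjusted p = 0.0406, ending without 24, 32, 40, 48 or 72 hours at 0.0546 to 0.0896). Both genes that activate the head groups of membrane phospholipids rose, Pcyt1 by 0.35 (SE 0.051, adjusted p = 0.00861), evenly from 0.25 to 0.41 at each hour, and Pcyt2 by 0.31 (adjusted p = 0.0274), a call lost without 24, 32, 40 or 56 hours (adjusted p = 0.0528 to 0.0884). LKRSDH, the first enzyme of lysine breakdown, rose by 0.58 (SE 0.099, adjusted p = 0.0135). Of 2 purine synthesis genes Paics rose by 0.56 (SE 0.095, adjusted p = 0.0139) and Adsl fell by 0.29 (adjusted p = 0.0372), a call lost without 24, 32, 48, 56 or 72 hours (adjusted p = 0.0603 to 0.110).

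For 2 genes chosen here, as for AkhR above, some probe sets were called and others were not. The clock gene cwo was at 0.79 (SE 0.10, adjusted p = 0.00559) at 1 probe set, positive at 6 of 6 hours, and at 0.083 (adjusted p = 0.596) at its brighter one. Gpdh1, which links glycolysis to glycerol lipids, was at -0.61 (adjusted p = 0.00908), -0.35 (adjusted p = 0.0362), -0.29 (adjusted p = 0.0541) and -0.18 (adjusted p = 0.101) at 4 probe sets, negative at 6 of 6 hours in each.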
